A study of Orbicella faveolata with 48 samples.

Results

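The comparison asked how heated fragments of the mountainous star coral Orbicella faveolata from inshore reefs differed in RNA from those of offshore reefs after 31 days. It rests on 12 of the 48 libraries of the study, taken as all coral libraries of the heated arm at 31 days. Of these, 9 fragments came from inshore and 3 from offshore reef sites of the Florida Keys. All 12 had been acclimated, warmed over several days and then held at 32 °C, while the matching controls of 31 days stood at 30 °C. Inshore fragments carried 4 genotype labels: In1 (tags A2, A4 and A5), In2 (B2 and B3), In3 (D3, D4 and D5) and In4 (BLY5). Offshore fragments carried 3, with 1 fragment each: O1 (C2), O2 (C4) and O5 (C5). Counts were summed per genotype label, so the main comparison set 4 inshore sums against 3 offshore sums. Nothing in the labels says that fragments of 1 label were separate colonies, so p-values measure the spread between these labels as given.

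Reef-building corals live with photosynthetic algae inside their cells, and the algae supply most of the coral's food. Heat disturbs that partnership and can end in bleaching, the loss of the algae. Colonies of 1 species from warmer, more variable inshore water are known to differ in heat tolerance from colonies offshore, and lineages of algae also differ in how they stand heat. Whole tissue was sequenced, so coral and algal RNA were read together and deposited as 2 tables of estimated counts, 1 row per assembled sequence. Each row is called a feature here. The files do not pair the identifiers with gene names, so features are given by identifier, and neither a marker check of the tissue nor a count by pathway could be made.

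Coral counts per library ran from 5288427 to 6382745, and levels are given as CPM, each count scaled to the library's coral total. Fragments B2 and B3, which are all of In2, stood apart from the other 10 libraries. In both of them, 246 features were at 5 CPM or more and at least 4 times the level of any other library of the comparison, and 322 were lower by the same rule. The 246 features took 13.4% of coral counts in B2 and 13.4% in B3, against 0.433% to 0.866% in the other 10. The rule itself requires a gap between these libraries, so the shares only describe its size. The 100 most abundant features held 25.2% and 25.5% of counts in B2 and B3, against 13.9% to 18.1%.

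Outside the 12 libraries, the same 246 features were high in a single library, the offshore control C4 of 31 days, where they took 14.5% of counts. In the remaining 45 libraries of the study their share lay between 0.416% and 1.96%. Of the 246 features, 201 were higher in control C4 than in every other library outside the 12, and 305 of the 322 lower features were lower there than in every other such library. The state shared by B2, B3 and control C4 therefore appeared in 2 heated inshore fragments and in 1 unheated offshore fragment. The heated fragment C4 did not show it, at 0.554% of counts. Neither control B2 nor control B3 of 31 days showed it, at 0.547% and 0.536%. What set these 3 libraries apart was not tested, and results that these libraries move are given with and without them.

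A second feature of the libraries concerned which fragments were alike. For each pair, the features at 5 CPM or more in 1 library and at 0 counts in the other were counted. Fragments of 1 label other than In2 differed by 14 to 201 such features (median 61, 6 pairs). B2 and B3, although both labelled In2, differed by 314. Inshore fragments of other labels differed by 292 to 528 (median 389, 29 pairs), so B2 and B3 lay within the range of fragments of unlike labels. Without the group of 156 features described further down, B2 and B3 differed by 281, just under the 292 to 438 of unlike inshore labels and above the 14 to 79 of the other pairs of 1 label.

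By the same count, an inshore and an offshore fragment differed by 282 to 525 features (median 330, 27 pairs). Offshore fragments differed among themselves by 273 to 373 (median 324, 3 pairs). The range between habitats thus overlapped the ranges within each habitat, and its median lay below that between inshore labels. Over all 48 libraries, the nearest library of each of the 12 carried the same letters in its tag in 12 of 12 cases and the same full tag in 7 of 12. Offshore C2, labelled O1 here, was nearest to the heated C2 fragment of 5 days, labelled O2, at 11 features. Label and tag therefore did not always go together between days, and the groups by habitat were not affected.

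**Figure D1:**
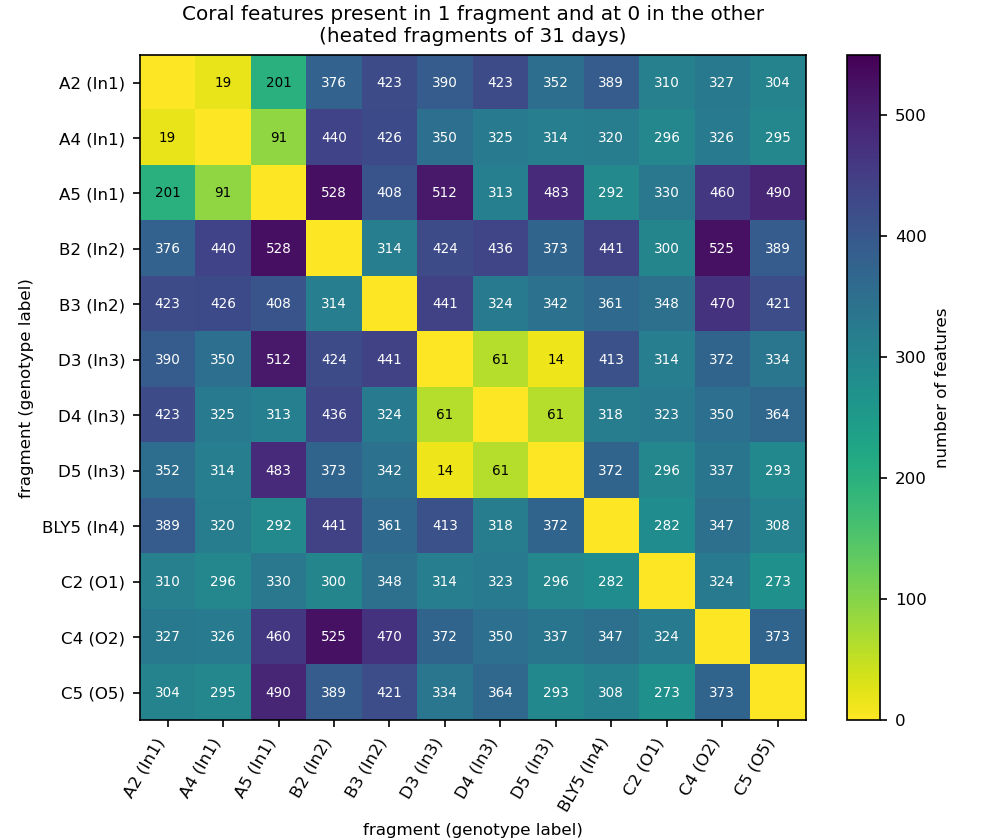
Number of coral features at 5 CPM or more in 1 heated fragment of 31 days and at 0 counts in the other, for each pair of the 12 fragments (rows and columns, with the genotype label in brackets; the colour scale counts features). Fragments of In1 and of In3 form low blocks of 14 to 201 features, and B2 and B3 differ by 314. The range among offshore fragments (273 to 373) overlaps that between inshore and offshore fragments (282 to 525).

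Rank correlations over the features tested also placed fragments of 1 label nearest to each other, as a description across features that share library depth. Spearman's rho was 0.922 to 0.965 between fragments of 1 label (6 pairs, In2 left out). It was 0.845 to 0.888 between inshore fragments of other labels (15 pairs without B2 and B3), 0.851 to 0.887 between offshore fragments (3 pairs) and 0.834 to 0.886 between habitats (21 pairs), ranges that overlapped. B2 or B3 against the other fragments gave 0.759 to 0.813 (20 pairs). B2 against B3 gave 0.86, above those pairs but within the range of inshore fragments of other labels. Habitat took 17.4% of the squared spread of log2 CPM over the 7 genotype sums, where an even share of the degrees of freedom is 16.7%. It took 21.0% with B2 and B3 left out, where an even share is 20%.

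Across all features, no single coral feature passed the test between habitats. With edgeR's quasi-likelihood test and Benjamini-Hochberg adjustment at 0.05, 0 of 30128 features were called (0%), and the smallest adjusted p was 0.263. At an unadjusted p under 0.05 there were 1391 features (4.62%), of which 834 (2.77%) were higher inshore and 557 (1.85%) higher offshore. DESeq2 called 220 features on the same sums (0.73%), 177 higher inshore and 43 higher offshore. Of the 177, 74 (41.8%) belonged to the group of 156 features described further down, of which 89 were tested. These 89 passed the filter on low counts largely through the inshore sums in which they are high. Their direction was therefore favoured by the filter. The 2 tools therefore differed on whether any feature passed, and the edgeR result is the main one here. The features tested held 97.6% to 98.5% of the coral counts of each library, and the other 57312 of 87440 were too low to test.

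Most differences were small beside their error. The median absolute log2 difference was 0.25 in the 100 most abundant features, with a median standard error (SE) of 0.37. It was 0.20 in the next 899, 0.21 in the next 8997 and 0.36 in the 20132 least abundant, with median SEs of 0.27, 0.26 and 0.49. Differences of 2-fold or more stood in 17 of the 100 most abundant features, in 9.12% and 7.22% of the next bins and in 13.6% of the least abundant. Over all features tested, they stood in 3477 (11.5%), whichever their p, and single values ran from a log2 difference of -5.67 to one of 11.7.

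With B2 and B3 left out, 3 inshore sums stood against 3, and edgeR again called 0 of 29259 features (0%). At an unadjusted p under 0.05 there were 1478 (5.05%), 810 higher inshore and 668 higher offshore, and DESeq2 called 203 (0.694%), 126 higher inshore and 77 higher offshore. Of the 203, 33 belonged to the group of 156 features, of which 37 were tested, again kept by the filter largely through inshore sums. With the 10 fragments as separate samples edgeR called 35 features, 21 higher inshore and 14 higher offshore. Fragments of 1 label share a source, so that count rests on more samples than the labels give.

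The features with the smallest p in each direction show what the leading differences were like. Higher inshore, these were OFAVBQ_DN221892_c0_g1_i1 and OFAVBQ_DN218597_c0_g1_i1. The first stood at 304.3 CPM in A5, 128.9 in BLY5, 98.3 in D4, 90.4 in B3 and 7.56 in A4. It was at 0.825 CPM in D5 and at 0 in A2, B2 and D3, while offshore it was at 0.158 in C2, 0.350 in C4 and 0 in C5. The inshore range therefore ran through the offshore one, and within each of In1, In2 and In3 it was high in some fragments and at 0 in another.

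In the sums, OFAVBQ_DN221892_c0_g1_i1 had 3793 inshore counts against 3 offshore, a ratio of CPM of 441 with an exact 95% interval of 151 to 2140, which covers counting error only. The fitted log2 difference was 8.90 with an SE of 0.88, and edgeR's adjusted p was 0.263. With fragments as separate samples the adjusted p was 0.707. OFAVBQ_DN218597_c0_g1_i1 followed it: 278.5 CPM in A5, 111.7 in BLY5, 95.2 in D4, 84.1 in B3 and 6.05 in A4, and at 0 in A2, B2 and D3. Its offshore levels were 0.475, 0.175 and 0 CPM, and its log2 difference was 8.38 (SE 0.86, edgeR adjusted p 0.263). Where the first feature had at least 50 counts, in 4 of the 12 libraries, the second had 0.866 to 0.968 times its counts.

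These 2 features belonged to a larger group that moved together. Over the 36 libraries outside the comparison, 156 features correlated with the first at 0.8 or more on the log2(CPM + 1) scale. Their summed level in the heated fragments of 31 days was 2852 CPM in A5, 1141 in BLY5, 975.8 in B3 and 865 in D4. It was 72.0 CPM in A4 and 0.752 to 6.93 in D5, B2, D3 and A2. Offshore it was 52.0 in C2, 36.6 in C4 and 1.59 in C5. Thus 4 of 9 inshore fragments were far above the rest, while the other 5 lay on both sides of the offshore values.

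The group was present to very unlike degrees in the other arms and days. In inshore controls of 31 days its summed level ran from 4.96 to 1421 CPM (median 279.3), and in offshore controls from 9.002 to 138.0 (median 12.6), with control C4 highest. In heated fragments of 5 days the medians were 0.897 CPM inshore and 0.486 offshore. Of the 156 features, 89 passed the filter on low counts in the comparison, largely through the inshore sums, and all 89 were higher inshore. Leaving the group out gave 0 edgeR calls as before, with a smallest adjusted p of 0.872. The source of these transcripts could not be read from the identifiers and was not tested.

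**Figure D2:**
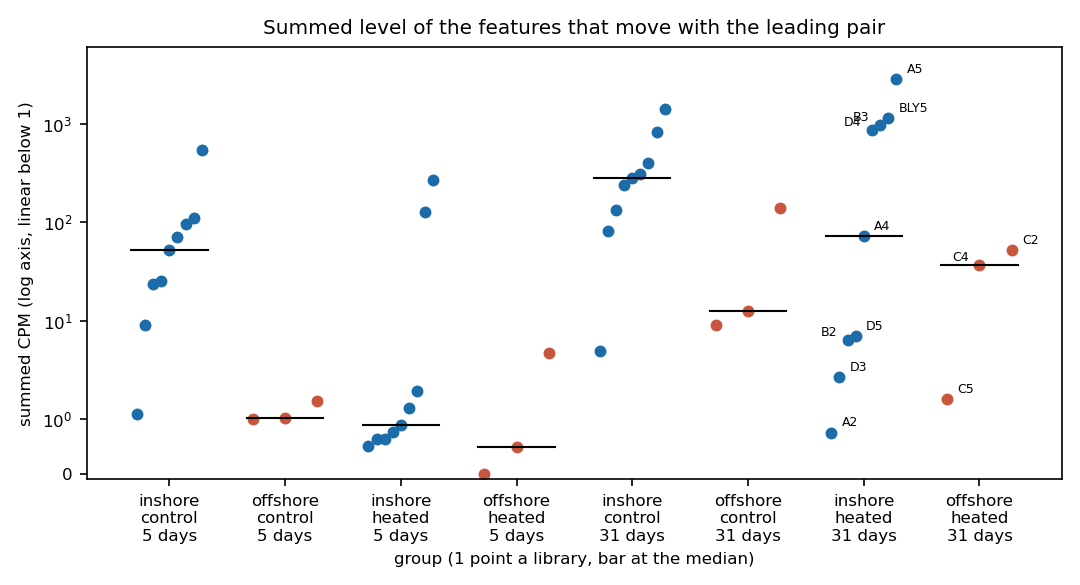
Summed CPM of the 156 features that move with the leading pair, in all 48 libraries by group (log axis, linear below 1; 1 point a library, bar at the median, tags given for the 12 libraries compared). A5, BLY5, B3 and D4 reach 865 to 2852 CPM, while A2, D3, B2 and D5 of the same habitat stay below 7, under the offshore fragments C4 and C2.

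Higher offshore, the leading feature was OFAVBQ_DN201408_c6_g3_i1. It stood at 120.5 CPM in C2, 36.7 in C4 and 47.9 in C5. Inshore it lay between 2.69 in A5 and 19.5 in D5, with a median of 11.8 over the 9 fragments, so every offshore fragment was above every inshore one. The log2 difference was -2.56 (SE 0.43, edgeR unadjusted p 0.000458, adjusted p 0.509). In the controls of 31 days inshore fragments stood at 16.1 to 48.4 CPM, and offshore C2 and C5 stood above them at 61.7 and 65.3. Control C4, which carried the state of B2 and B3, stood below them at 11.5. The log2 difference in the controls was -0.86 (SE 0.44) with C4 and -1.23 (SE 0.26) without it, with edgeR adjusted p of 0.68 and 0.532. The change of its habitat difference between arms was -1.71 on the log2 scale (SE 0.38, edgeR adjusted p 0.602), which did not pass. That fit held all libraries of 31 days. These include control C4, with which the difference in the controls was smaller.

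The second was OFAVBQ_DN199020_c10_g2_i1, at 15.7, 13.8 and 13.9 CPM in C2, C4 and C5. Inshore it lay between 3.46 in D4 and 7.14 in A2 (median 4.45), again with no overlap. Its log2 difference was -1.48 (SE 0.26, edgeR adjusted p 0.509). It had the same order in the controls of 31 days, control C4 included, where inshore fragments stood at 1.42 to 5.06 CPM and offshore ones at 7.63 to 13.5. Its habitat difference changed by 0.15 between arms in the fit with all libraries of 31 days (SE 0.31, edgeR adjusted p 0.867). In the heated fragments of 5 days the groups overlapped, since offshore C1 stood at 3.15 CPM within an inshore range of 2.42 to 5.41.

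Among the sums without B2 and B3, other features had the smallest p in 3 of 4 places. Higher inshore was OFAVBQ_DN215510_c3_g1_i2, at 26.3 to 43.8 CPM in the 7 remaining inshore fragments and at 9.98 in C2, 12.3 in C4 and 8.91 in C5. Its log2 difference was 1.70 (SE 0.17, edgeR adjusted p 0.292), and with all 7 genotypes it was 1.65 (SE 0.19, edgeR adjusted p 0.37). B2 stood with the inshore fragments at 36.1 CPM, while B3 stood below every offshore fragment at 5.76. Control B3 of 31 days was also low, at 8.44 CPM, against 20.4 or more in the other inshore controls of 31 days.

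OFAVBQ_DN215510_c3_g1_i2 kept its order at 5 days. In heated fragments of 5 days it lay at 21.6 to 38.0 CPM inshore and at 6.65 to 8.09 offshore, a log2 difference of 2.01 (SE 0.18, edgeR unadjusted p 5.29e-06, adjusted p 0.147). In controls of 5 days it lay at 16.3 to 30.2 CPM inshore and at 5.32 to 7.66 offshore. Outside B3 it was thus above the offshore range in every inshore fragment of each arm and day. Tags A4, BLY5, D3, D5, D6, C2 and C5 recur on both days, so the days do not give wholly separate colonies.

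Higher offshore without B2 and B3 were OFAVBQ_DN224175_c1_g3_i1 and OFAVBQ_DN209676_c2_g1_i9. The first stood at 21.5 CPM in C2, 30.7 in C4 and 14.5 in C5, with 403 counts in all. In the 7 inshore fragments it had 1 count, in A2, a ratio of CPM of 897 with an exact 95% interval of 160 to 35500 for counting error only. Of the 2 fragments left out, B2 held it at 14.04 CPM and B3 at 0, so the feature was present in 1 of the 9 inshore fragments. edgeR's adjusted p was 0.186 without B2 and B3 and 0.931 with them.

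Presence of OFAVBQ_DN224175_c1_g3_i1 went with the tag on the other occasions too. Control B2 of 31 days stood at 15.1 CPM, and all other inshore controls of that day were at 0. At 5 days it was above 0 in an inshore fragment only in B4, at 17.7 CPM in the control and 15.9 in the heated one. Offshore it was at 0 in C1 in both arms of 5 days, the lowest value of those groups.

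OFAVBQ_DN209676_c2_g1_i9 stood at 8.23, 8.58 and 8.12 CPM in C2, C4 and C5, and at 0.188 to 0.864 in the 7 inshore fragments without B2 and B3. B2 stood above the offshore fragments, at 11.6 CPM, and B3 between the groups, at 4.94. The log2 difference was -4.06 without them (SE 0.35, edgeR adjusted p 0.238) and -1.35 with them (SE 1.21, edgeR adjusted p 0.932). At 5 days, which holds neither tag, every offshore fragment was above every inshore one in both arms. The lowest offshore value was 1.80 CPM and the highest inshore value 1.22, both among the heated fragments.

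**Figure D3:**
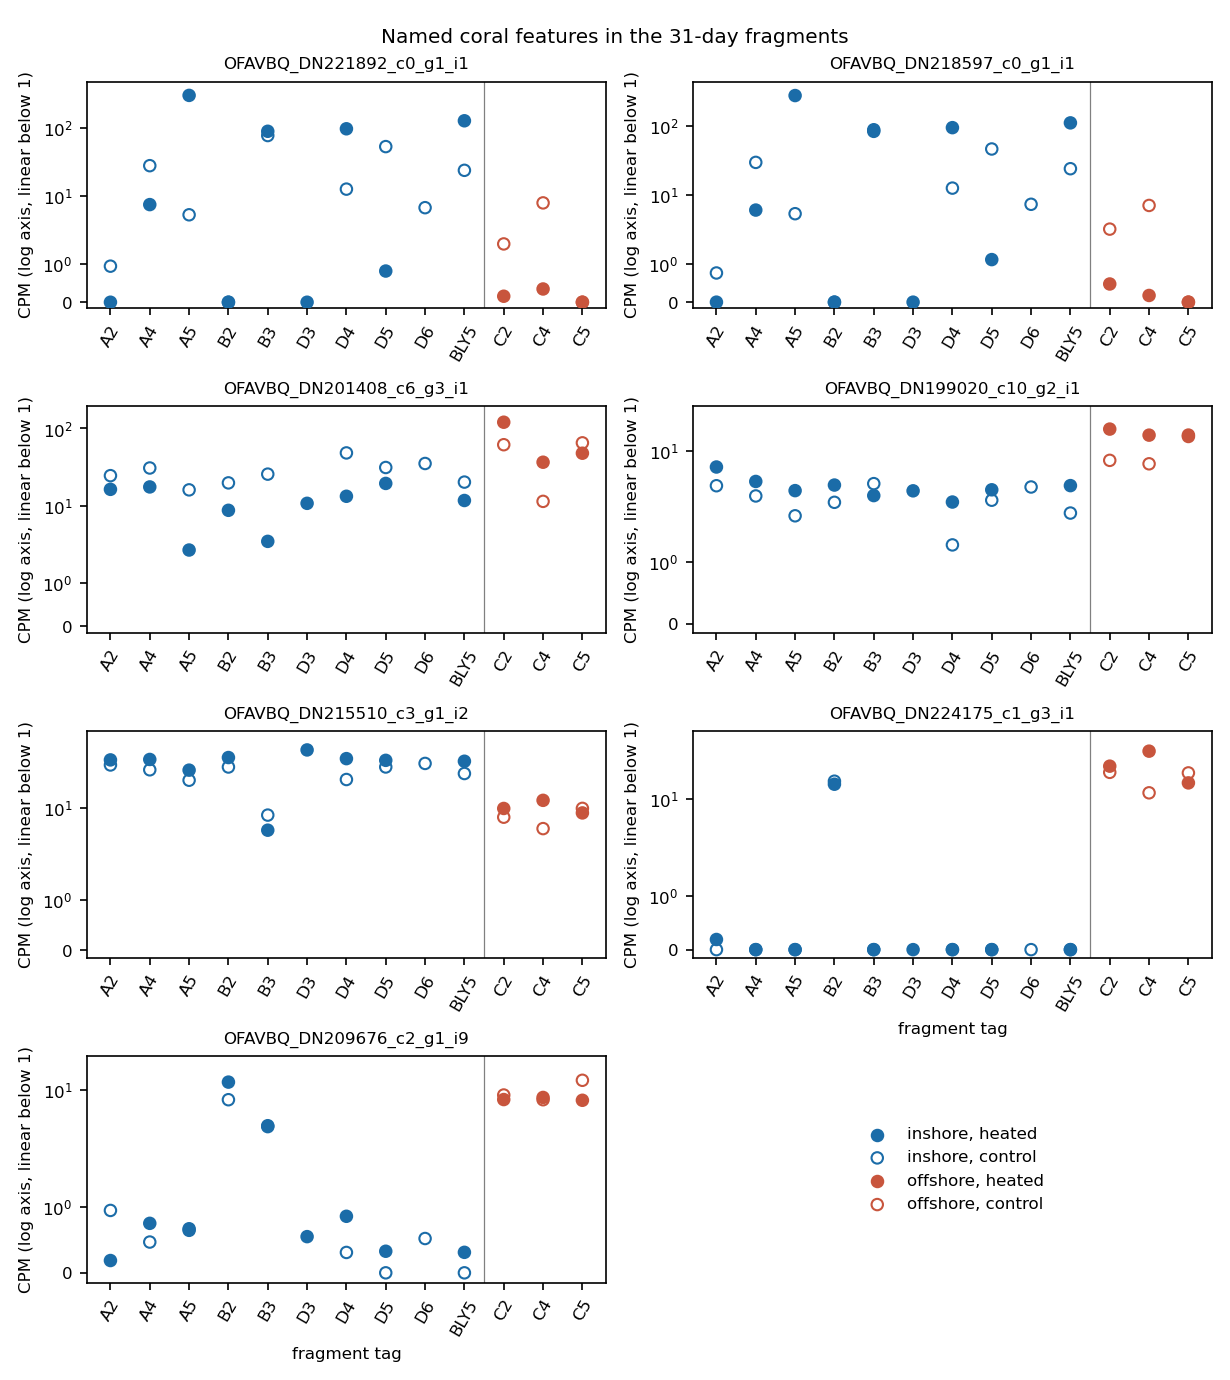
CPM of the 7 named coral features in each fragment of 31 days (log axis, linear below 1; filled points heated, open points control, blue inshore, red offshore; D3 was sequenced at 31 days in the heated arm and D6 in the control arm). The leading pair varies from 0 to 304.3 CPM among inshore fragments, OFAVBQ_DN199020_c10_g2_i1 separates the habitats in both arms, and B2 or B3 stands with the offshore fragments in the last 3 panels.

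Whether all fragments of a habitat lay on 1 side of the other was counted over the 30128 features tested. With all 12 fragments, 203 features (0.674%) had every inshore fragment above every offshore one, and 379 (1.26%) the reverse. Of these, 108 and 187 also differed at least 2-fold between group means. The counts were 535 (1.78%) and 545 (1.81%) without B2 and B3. With all 12 fragments, no feature was at 2 CPM or more in all fragments of 1 habitat and at 0 in all of the other. By sums, 1 feature was at 2 CPM or more in the 4 inshore sums and at 0 offshore. Sums are a looser unit, since 1 high fragment can carry the sum of its label. In the comparison without B2 and B3, 4 features were at 2 CPM or more in the 3 offshore fragments and at 0 in the 7 inshore ones, and 6 were at 2 CPM or more in the 3 inshore sums and at 0 offshore.

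The separated features were looked up in the other libraries. Of the 535 with inshore above, 110 (20.6%) had the same order in the controls of 31 days, compared without B2 and B3, against 3.67% of all features tested. Of the 545 with offshore above, 98 (18.0%) did, against 1.26%. With control C4 left out as well, the counts were 140 (26.2%), against 5.28% of all features tested, and 238 (43.7%), against 5.49%. Among the heated fragments of 5 days, where edgeR called 0 features between habitats (0%; 5.8% at an unadjusted p under 0.05) and DESeq2 called 220 (0.755%), the shares were 5.98% and 10.6%, against 1.45% and 1.11% of all features tested. All 3 other groups of arm and day had the same order in 9 features with inshore above (1.68%, against 0.0797% of all features tested) and 15 with offshore above (2.75%, against 0.0597%). The first include OFAVBQ_DN215510_c3_g1_i2 and the second OFAVBQ_DN209676_c2_g1_i9. Without control C4 they were 10 and 29, against 0.113% and 0.156% of all features tested. The genotype labels and many tags recur in these other groups, so they are not separate samples of each habitat. A difference between habitats cannot be told apart here from one between the same few corals sampled again.

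The habitat differences under heat were then set beside those of the controls of 31 days, which share tags but no library with them. In the controls edgeR called 1 of 27795 features (0.0036%), 1912 had an unadjusted p under 0.05 (6.88%) and DESeq2 called 91 (0.327%). Without control C4 the counts were 3 with edgeR and 201 with DESeq2. Of the 1391 features at an unadjusted p under 0.05 under heat, 1151 were tested in the controls and 869 of these (75.5%) had the same sign, against 49.3% of all features tested. Without control C4, which carried the state of B2 and B3, 1213 of 1342 (90.4%) had the same sign, against 62.7% of all features tested. In that fit 434 (32.3%) also had an unadjusted p under 0.05 in the same direction, against 5.78% of all.

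The libraries that stood apart moved the relation between arms over all features. Pearson's r across features between the log2 habitat differences of the 2 arms was 0.13 with all libraries (27198 features). It was 0.46 without B2 and B3 (26865 features), 0.55 without control C4 alone (29652 features) and 0.59 without all 3 (28935 features). With the heated libraries of 5 days, which stood at 33 °C, r was 0.35 with all 7 genotypes (27901 features) and 0.44 without B2 and B3 (27533 features). These are descriptions across features, which are not independent, and tags were shared between arms.

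**Figure D4:**
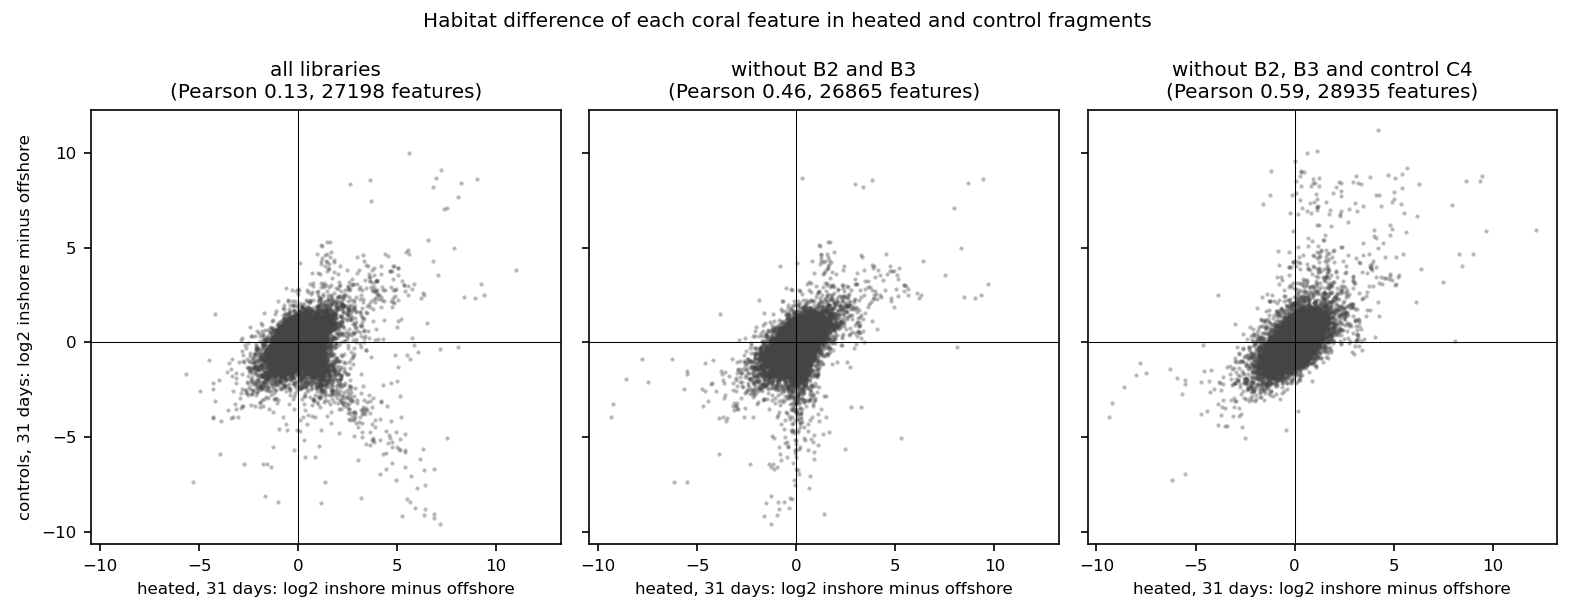
Log2 difference, inshore minus offshore, of each coral feature in the heated fragments of 31 days (x) and in the controls of 31 days (y), with all libraries (left), without B2 and B3 (middle) and without B2, B3 and control C4 (right). The tail of points that runs to the lower right in the left panel, high inshore under heat and high offshore in controls, turns vertical without B2 and B3 and is no longer seen without control C4, as Pearson's r goes from 0.13 to 0.46 and 0.59.

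Whether the habitat difference itself changed with heat was tested over the 24 libraries of 31 days, with a term for each genotype label. edgeR called 0 of 33584 features (0%), 2375 had an unadjusted p under 0.05 (7.07%) and DESeq2 called 15 (0.0447%). Without B2 and B3 edgeR called 1 feature, relatively higher offshore under heat. Without B2, B3 and control C4 it called 1 in the other direction. With no filter on low counts it called 568.

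The share of algal counts was lower on average in offshore fragments, and the difference did not pass its test. Algal counts, the total of the second table, were 9.93%, 12.5% and 10.8% of all counts in A2, A4 and A5. They were 8.01% in B2, 3.06% in B3, 2.67% in BLY5, and 6.48%, 5.09% and 8.64% in D3, D4 and D5. Offshore they were 1.12% in C2, 2.45% in C4 and 4.48% in C5, each with a 95% Wilson half-width of at most 0.0263 percentage points, for counting error only. The 3 offshore values lay among or under the lowest inshore ones, and the groups overlapped through B3 and BLY5.

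Algal counts over coral counts, as a log2 ratio, came to -4.07 ± 0.90 inshore (SD, n = 4 genotypes) and -5.40 ± 1.03 offshore (SD, n = 3). The difference of 1.33 had p = 0.114 in a two-sided exact permutation test, whose smallest possible p is 0.0286. Without B2 and B3 it was 1.39, with p = 0.2 in the exact test. With 3 genotypes on each side, every split has a mirror split of the same absolute difference. The exact test could therefore not go below 0.1 there. Leaving out O1, the fragment C2, moved the difference to 0.80. In whole tissue, fewer algal cells and less RNA per algal cell cannot be told apart.

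The kind of algal RNA also differed between fragments. In the 24 control libraries of the study, 1 axis took 89.8% of the variance of 37431 algal features, and its ends gave a set 1 of 15446 features and a set 2 of 17762. As a share of set 1 plus set 2, set 1 was 99.6% to 99.7% in the In1 fragments and 87.6% to 96.6% in those of In3. It was 97.7% in C2, 99.2% in C4 and 99.4% in C5. BLY5 held 0.607% of set 1, and the fragments of In2 were split, with 99.6% in B2 and 10.04% in B3. Counts outside both sets were 49.37% of the algal total in C2, 31.48% in C4 and 25.35% in C5. Inshore they ran from 16.8% in A2 to 34.57% in BLY5.

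Within the counts of both sets, all 3 heated offshore fragments thus held mostly set 1, while 2 of 9 inshore fragments held mostly set 2. The offshore controls of 31 days with the same tags held mostly set 2, with 0.294% of set 1 in C2, 0.254% in C4 and 5.598% in C5, so set 1 was not what the offshore fragments held in both arms. The mean share of set 1 was 62.0% ± 45.5 inshore (SD, n = 4 genotypes) and 98.8% ± 0.967 offshore (SD, n = 3), with p = 0.257 in the exact permutation test. The difference was -36.7 percentage points with all genotypes and -16.3 without In4, the single fragment BLY5. Set 2 per coral count was higher in each of the 4 inshore genotypes than in any offshore one. On the log2 scale, with 0.5 added to the set 2 count, it was -8.53 ± 2.31 inshore (SD, n = 4) and -12.7 ± 0.35 offshore (SD, n = 3). The difference of 4.12 had p = 0.0571 in the exact permutation test. As a share of both sets, though, set 2 was smaller in In1 than in any offshore genotype. Set 1 made up 99.64% in In1 and 97.65% to 99.41% offshore. The In1 fragments A2, A4 and A5 held 1874, 1695 and 2390 set 2 counts, against 773.7 to 1290 in the offshore fragments. Set 1 per coral count differed by -0.69, with p = 0.943 in the same exact test, and by 1.45 without In4.

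Both B2 and B3 showed the state that set them apart, and only B3 held mostly set 2. Within In2 the summed level of the group led by OFAVBQ_DN221892_c0_g1_i1 was high in B3 (975.8 CPM), with mostly set 2, and low in B2 (6.32 CPM), with mostly set 1. Across labels it was high in BLY5 with mostly set 2 and also in A5 and D4 with mostly set 1. Whether the algae present bear on any coral feature was not tested.

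**Figure D5:**
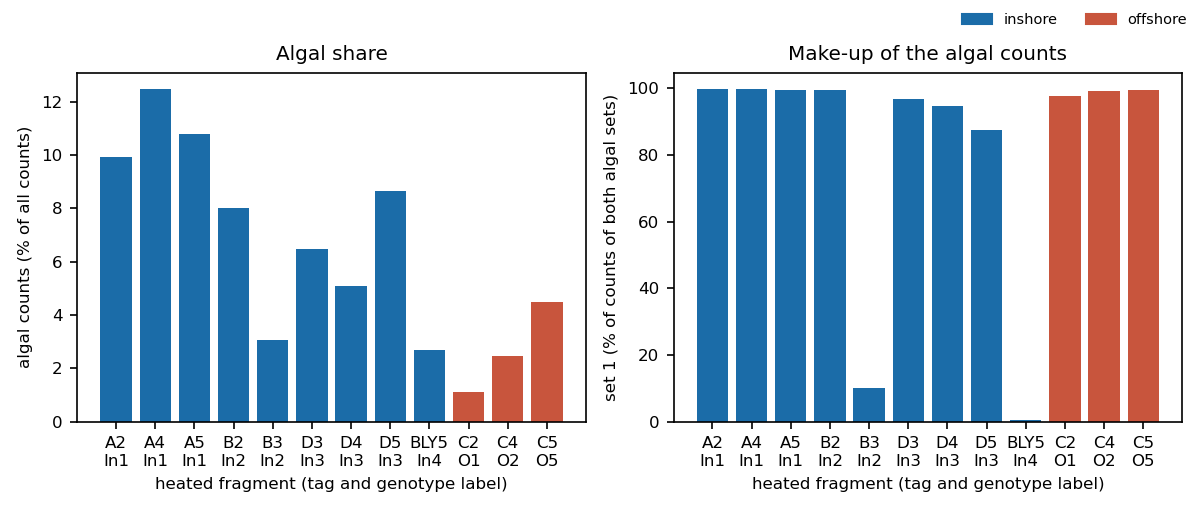
Algal counts as a percentage of all counts (left) and set 1 as a percentage of the counts of both algal sets (right) in each heated fragment of 31 days (bars; blue inshore, red offshore; tag and genotype label below). Offshore fragments lie at 1.12% to 4.48% algal counts. Set 1 makes up almost all of their counts in both sets, whereas B3 and BLY5 hold mostly set 2.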

How the data were processed

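Total RNA of whole coral tissue went into stranded mRNA library preparation, per the labels' protocols. The authors deposited 2 tables of estimated counts, 87440 coral features and 93246 others that the table's name marks as symbiont. The tables are named for kallisto, and the submitters' processing notes name Trimmomatic 0.36 and RSEM. Which tool made the counts, and from which reference, is not given in the sources used here. Of the deposited coral values, 23.6% were not whole (3.07% in the second table), and sums were rounded. Each Trinity gene identifier held 1 feature, so sums per Trinity gene equal the results by feature. Reads of near-identical sequences can be divided among features in estimated counts, and strand use in counting is not stated.

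Counts were summed per genotype label and tested in R 4.3.3 by the quasi-likelihood F test of edgeR 4.0.16. This followed TMM scaling and filterByExpr, with Benjamini-Hochberg adjustment at 0.05. SEs of edgeR differences were calculated back from the test, as the absolute log2 difference over the square root of F. They are approximate, above all where a group had almost no counts. The TMM factor of In2 was 0.728, and those of the others 1.005 to 1.103. Alternatives were DESeq2 1.42.0, limma 3.58.1, other scaling and filters, fragments as samples, and leaving out labels or fragments. Algal values were averaged per genotype and tested over all 35 ways to choose 3 of 7. Samples with the same label in both arms share a source by label, and the test between arms used the label as a block. Named features have the 2 smallest p-values per direction, with all 7 genotypes and without B2 and B3. The code was tested on simulated data. No 2 libraries of a group matched within sampling noise (39 pairs, lowest chi-square 5.75 per degree of freedom).

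The comparison, its members, the 156 features that move together and the features that set B2 and B3 apart were chosen with earlier results of these data known. The lists of genes by product could not be applied without gene names.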

Additional observations from a re-analysis of the deposited data

Results flagged for a closer look

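Single fragments stood far from the other inshore fragments of their group in 7 of 14 groups of values examined, by the gap to the nearest value over the range. A rate of about 1 in 20 groups by chance would hold for normally spread values, which CPM values need not be. Features named from the comparison without B2 and B3 were also chosen with those fragments out. That choice can favour features in which B2 or B3 stands apart, so the count of flags is not read against that rate. Values of features that move together are not independent. A5 was highest for OFAVBQ_DN221892_c0_g1_i1, at 304.3 CPM with the next fragment at 128.9. It was highest for OFAVBQ_DN218597_c0_g1_i1, at 278.5 CPM with the next at 111.7. It was also highest for the sum of the 156 features that move with them, at 2852 CPM with the next at 1141. A2 was highest for OFAVBQ_DN199020_c10_g2_i1, at 7.144 CPM with the next at 5.295.

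The other flags concerned In2. B3 was lowest for OFAVBQ_DN215510_c3_g1_i2, at 5.76 CPM with the next inshore fragment at 26.3. B2 was highest for OFAVBQ_DN224175_c1_g3_i1, at 14.04 CPM with the next at 0.188. B2 was also highest for OFAVBQ_DN209676_c2_g1_i9, at 11.6 CPM with the next, B3, at 4.94.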

How the results depend on the processing

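The count of 0 features between habitats under heat became 220 with DESeq2, 2 with no filter on low counts and 1 with both arms in 1 fit. It lay between 0 and 1 when labels or single fragments were left out in turn, with 1 call without O5 and 1 without fragment B2. Other scaling, a filter at a mean CPM of 1, separate fragments, limma, B2 and B3 as separate genotypes, Trinity clusters and leaving out the 156 features that move together gave 0. Per Trinity gene it was 220 with DESeq2, 2 with no filter and 0 to 1 with a label left out. Without B2 and B3 it became 203 with DESeq2, 3 with no filter, 35 with separate fragments and 1 with limma. In the controls of 31 days the 1 call became 91 with DESeq2, 3 without control C4, 201 with DESeq2 without control C4 and 0 to 3 with a label left out. In the heated fragments of 5 days 0 became 220 with DESeq2 and 0 to 1 with a label left out.

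Arms were paired by genotype label. The count of 0 for the change between arms was 0 with no replicate block, 15 with DESeq2, 568 with no filter, 1 without B2 and B3, 1 without B2, B3 and control C4, and 0 to 1 with a label left out. No paired analysis was possible between habitats because no inshore fragment is tied to an offshore one.

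Set 1 per coral count turned from -0.69 to 1.45 without In4 (exact permutation p = 0.3), with a range of -1.83 to 1.45. The other algal differences kept their direction. With a genotype left out no exact test could go as low as 0.05, so their side of the threshold says nothing there. The cause of these changes was not tested. Leaving out control C4 and leaving out the 156 features were chosen after seeing the data. With 4 and 3 genotypes and 1 fragment for each offshore label, the number of genotypes limits the precision.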
